A study of Mus musculus with 12 samples.

Results

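The allergic skin reaction to dinitrofluorobenzene (DNFB) was profiled in ears of mice that carry neither cannabinoid receptor CB1 nor CB2. Of the 12 arrays in the series, 6 make up this comparison, and they were chosen by genotype and treatment: 3 DNFB-treated allergic ears and 3 untreated control ears of Cnr1-/-/Cnr2-/- mice. Both ears came from the same 3 knockout animals, the right ear being the treated one and the left ear the control. The remaining 6 arrays hold 3 DNFB-treated and 3 untreated ears of C57BL/6J wild-type mice, and they were used to show where the knockout response differed. All animals were female and 8 to 10 weeks old. Each had been sensitized with 50 µl of 0.2% DNFB in acetone and olive oil on shaved abdominal skin on 2 days in a row, and on day 5 the right ear received DNFB at 0.3% in a volume of 10 µl. Whole ears were harvested 48 h after a repeated DNFB challenge. The knockout control ears therefore came from sensitized and challenged animals, carried the receptor deletions too, and are labelled untreated, with no mention of vehicle. The strain background of the double knockout is not given in the sources used here.

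DNFB is a hapten, a small reactive chemical that becomes immunogenic once it binds skin proteins. In an animal that has been sensitized, a later exposure recruits primed T cells, which secrete interferon gamma and other cytokines. Keratinocytes and resident immune cells answer with chemokines that draw in neutrophils and monocytes, and the epidermis thickens. CB1 and CB2 are G protein-coupled receptors for the endocannabinoids anandamide and 2-arachidonoylglycerol, lipids that are made on demand in many tissues, skin included. The comparison asks which transcripts change in an allergic ear that has neither receptor.

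RNA was hybridised to Affymetrix mouse arrays, 1 ear to an array. The deposited values are linear intensities. A probe set was tested if it reached an intensity of 16 on at least 3 of the 12 arrays, which left 29460 probe sets. Each gene was represented by its brightest tested probe set, giving 13383 genes. Array medians lay between 24.7 and 30.1, and 57.7% to 61.5% of probe sets reached 16. The ratio of 3' to 5' control probe sets, a measure of RNA integrity, was for Actb 0.42 ± 0.01 on the log2 scale in knockout DNFB ears and 0.48 ± 0.02 in knockout control ears (SD, n = 3 each), and for Gapdh -0.32 ± 0.06 in knockout DNFB ears and -0.38 ± 0.06 in knockout control ears. In wild-type ears the Actb ratio was 0.52 ± 0.08 with DNFB and 0.66 ± 0.07 without. Markers of epidermis, cartilage, skeletal muscle, fibroblasts, endothelium, fat and Schwann cells were all present, while the B cell genes Cd79a and Ms4a1 stayed below the test limit and the liver gene Alb lay close to it. Instrument records place the 3 knockout DNFB ears and knockout control ear 3 in 1 washing run and knockout control ears 1 and 2 in another. With the washing run as a block, the comparison rests on knockout control ear 3, and calls that this block ends are marked where the genes are named.

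The reaction changed a large part of the measurable genes. At a limma adjusted p under 0.05, 2837 genes (21.2%) were higher and 3286 genes (24.6%) were lower in knockout DNFB ears than in knockout control ears. Among probe sets the counts were 5020 higher (17.0%) and 6481 lower (22.0%). With the washing run as a block these fell to 2801 higher and 2990 lower probe sets. Where a group's mean lay below 16, the fitted log2 difference carries the test but does not measure the size, and the fold is given as a lower bound with each ear below 16 set to 16. With every ear below 16 set to 16, 116 genes (0.867%) were higher by at least 8-fold and 2 genes (0.0149%) were lower by at least 8-fold. The 1st principal component of the 6 knockout arrays carried 64.7% of the variance and the next one 10.6%. Knockout DNFB and knockout control ears did not overlap in 56.6% of all genes, and the steepest genes were named only from these. Each array started from 5 µg of total RNA, so a signal is relative to the ear's other RNA. Because whole ears were extracted, a lower signal from fewer cells of a type and one from less RNA per cell cannot be told apart. A lower signal need not mean either, and its cause was not tested.

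**Figure D1:**
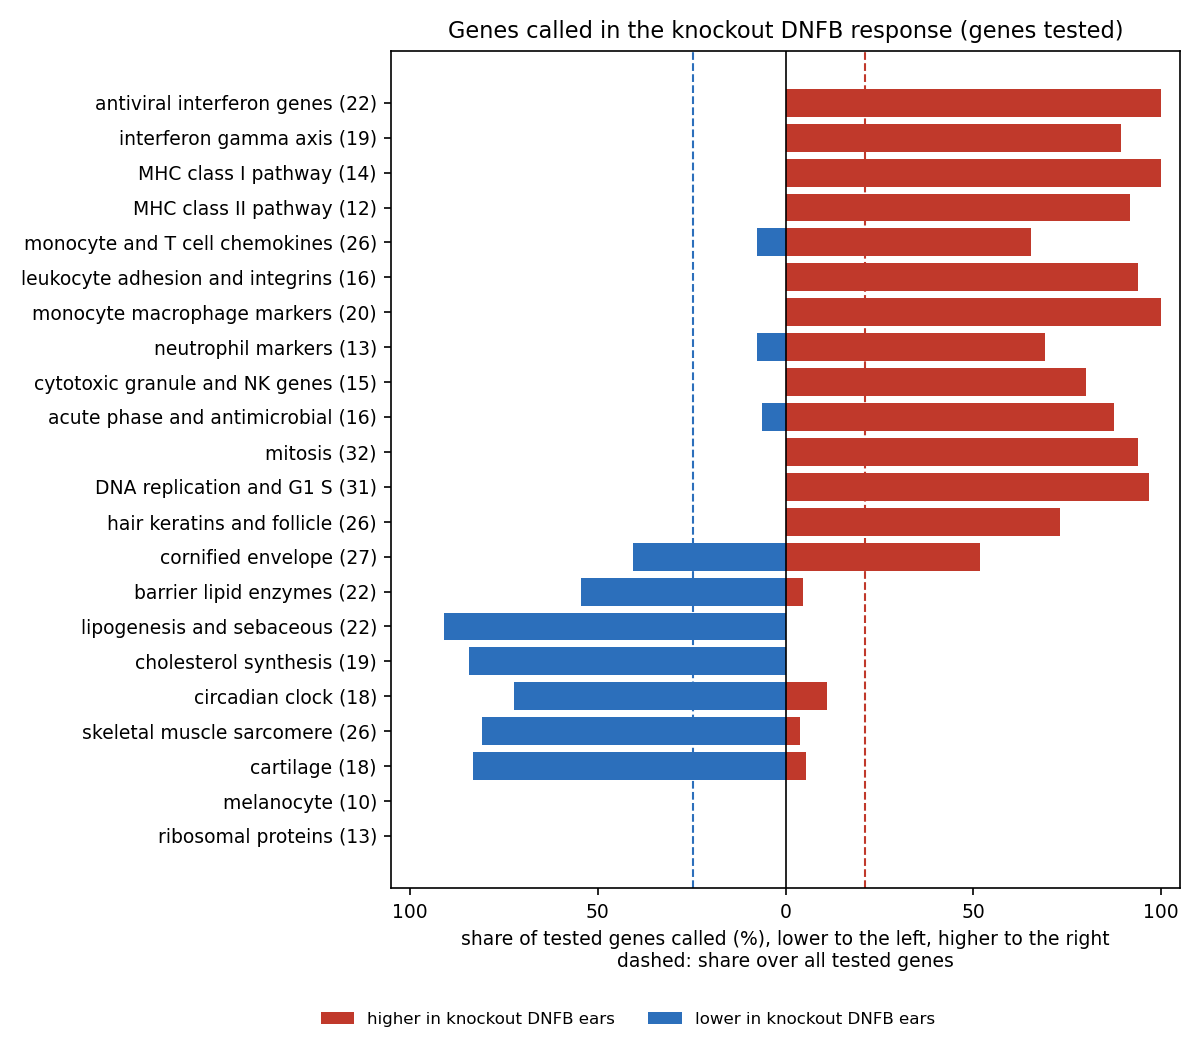
Share of tested genes called higher (right, red) or lower (left, blue) in knockout DNFB ears against knockout control ears for 22 gene lists, in percent of the list's tested genes. The vertical lines mark the array-wide shares, 21.2% higher and 24.6% lower; interferon, antigen presentation, mitosis and monocyte lists lie far right of theirs, and cholesterol synthesis, lipogenesis and sarcomere lists far left.

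Interferon gamma, the cytokine that T helper and cytotoxic cells use to activate macrophages and keratinocytes, signals through Jak kinases to switch on immunity GTPases and antigen presentation. Of the 19 tested genes of that axis, 17 rose and 0 fell, with a median log2 fold change of 2.25, or 2.08 with every ear below 16 set to 16, against -0.06 and -0.04 over all genes. Ifng itself reached intensities of 24.2, 17.6 and 22.5 in knockout DNFB ears, against 0.978, 0.814 and 0.746 in knockout control ears, a log2 difference of 4.66 ± 0.56 (limma, adjusted p = 0.00014). The control ears lay below the test limit, so the fold is only bounded, at 1.33-fold or more. Gbp2, a guanylate-binding protein that attacks the vacuoles of intracellular microbes, had intensities of 2008, 2384 and 1832 in knockout DNFB ears and 131, 82.1 and 84.6 in knockout control ears. That is a 21.3-fold rise (log2 4.41 ± 0.20, adjusted p = 7.1e-07), and the lowest DNFB ear was far above the highest control ear. The immunity-related GTPases Iigp1 (log2 4.03 ± 0.30), Igtp (3.13 ± 0.17) and Irgm1 (3.11 ± 0.12) rose as well. Among the transcription factors of the axis, Irf7, which drives type I interferon production, rose by 2.94 ± 0.20 on the log2 scale. Irf8, a myeloid lineage factor, rose by 2.61 ± 0.19, and Irf1, an early interferon-induced factor, by 2.08 ± 0.13. Socs1, the feedback inhibitor of Jak kinases, rose by 1.32 ± 0.22. Of the receptor chains, Ifngr2 rose by 0.78 ± 0.14.

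Of the antiviral genes that type I interferons and interferon gamma share, 22 of 22 tested rose, against 21.2% of all genes. Their median log2 fold change was 2.58, or 2.38 with ears below 16 set to 16. The lists and their members were chosen with earlier results of these data known. Full or nearly full counts in this and the other lists may therefore partly reflect that choice. Oas3, an enzyme that makes the second messenger which activates RNase L, had intensities of 99.5, 103 and 67.6 in knockout DNFB ears, against 3.95, 7.49 and 0.972 in knockout control ears (log2 4.85 ± 0.69, at least 5.53-fold, adjusted p = 0.00038). Rsad2, also called viperin, which blocks replication of several viruses, had intensities of 431, 543 and 461 in knockout DNFB ears and 41.6, 32.0 and 44.3 in knockout control ears. Its log2 difference was 3.61 ± 0.15 (adjusted p = 5.8e-07), and the groups did not overlap. Zbp1, a sensor of Z-form nucleic acid, rose by 4.34 ± 0.46 on the log2 scale (at least 17.7-fold), Oasl2 by 4.58 ± 0.17 and the membrane protein Ifitm3 by 1.69 ± 0.12. Oas3 was dim in control ears, and its log2 difference was 5.50 without control ear 2 and 4.02 without control ear 3.

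Promoters of these genes are shown because many of them hold the core of the interferon-stimulated response element, the motif bound by interferon regulatory factors. The motif, GAAA followed by 2 bases of any kind and GAAA, was searched on both strands in RefSeq windows (GRCm38.p6) of 250 bases before to 50 bases after each gene start. A window was matched for 16 of the 22 antiviral genes, of which 11 (68.8%) held it, and for 17 of the 19 genes of the interferon gamma axis, of which 8 (47.1%) held it. Over all 10745 tested genes with a window the share was 3.81%. A match describes the letters of the window and is no evidence of binding. Each stretch below is 60 bases on the strand of its gene, 5' to 3', with the motif in capitals. In Oas1a 2 copies overlap by 4 bases, and in Rsad2 and Ifit1 the capitals show the motif's reverse complement.
Oas3 (GRCm38.p6 chr5:120777685-120777744, minus strand, 85 to 26 bases before the gene start): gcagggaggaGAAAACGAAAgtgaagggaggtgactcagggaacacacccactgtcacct
Ifit1 (GRCm38.p6 chr19:34640775-34640834, plus strand, 114 to 55 bases before the gene start): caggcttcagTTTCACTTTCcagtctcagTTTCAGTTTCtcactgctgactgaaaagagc
Oas1a (GRCm38.p6 chr5:120907526-120907585, minus strand, 60 to 1 bases before the gene start): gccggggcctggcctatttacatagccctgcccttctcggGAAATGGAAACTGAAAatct
Rsad2 (GRCm38.p6 chr12:26456523-26456582, minus strand, 130 to 71 bases before the gene start): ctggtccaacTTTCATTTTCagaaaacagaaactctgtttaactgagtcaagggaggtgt
Of these genes, Ifit1, which binds RNA without a host cap, had a log2 difference of 4.33 ± 0.32 (at least 16.4-fold), and Oas1a one of 3.96 ± 0.25.

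Antigen presentation rose along both routes. Of the MHC class I pathway, which shows peptides to cytotoxic T cells, 14 of 14 tested genes rose, with a median log2 fold change of 1.38. The immunoproteasome subunits Psmb8 (log2 3.09 ± 0.14), Psmb9 (3.03 ± 0.12) and Psmb10 (2.38 ± 0.16), which shape peptides for loading, were among them. The peptide transporter Tap1 rose by 2.14 ± 0.13 on the log2 scale. B2m, the light chain of every class I molecule, was already bright, with intensities of 5623, 6429 and 6589 in knockout DNFB ears and 2809.6, 2852 and 3032 in knockout control ears, and rose by 1.10 ± 0.10. Of the MHC class II pathway, which shows peptides to helper T cells, 11 of 12 tested genes rose, with a median log2 fold change of 1.10. H2-Ab1 rose by 1.08 ± 0.10 on the log2 scale and the invariant chain Cd74 by 0.69 ± 0.11. Ciita, the master switch of class II genes, rose by 1.57 ± 0.29 (at least 2.77-fold). The costimulatory receptor Cd40 rose by 2.03 ± 0.22, and Ctss, the protease that trims the invariant chain, by 1.53 ± 0.12.

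Interleukin-1 cytokines are made as precursors that inflammasomes and gasdermin pores release from myeloid cells and keratinocytes. Of 20 tested genes in that family, 13 rose and 2 fell. Il1b had intensities of 724, 1132 and 1805 in knockout DNFB ears, against 20.4, 13.5 and 12.2 in knockout control ears. This was a rise of at least 65.7-fold, since the control mean lay below 16 (log2 6.25 ± 0.31, adjusted p = 8.8e-07). Every DNFB ear exceeded every control ear by more than 1 order of magnitude. Its endogenous antagonist Il1rn also rose, by 1.05 ± 0.16 on the log2 scale, as did Il18bp, the soluble trap of interleukin-18, by 4.55 ± 0.56 (at least 6.16-fold). The inflammasome sensor Nlrp3 rose by 2.97 ± 0.30 (at least 4.10-fold), the inflammatory caspase Casp4 by 3.32 ± 0.18 and the pore protein Gsdmd by 1.96 ± 0.13. Il1f10, an interleukin-1 relative made in skin, went the other way: it had intensities of 35.9, 28.8 and 21.4 in knockout DNFB ears, against 179, 226 and 221 in knockout control ears (log2 -2.89 ± 0.24, adjusted p = 1.4e-05).

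Cytokines that signal through gp130 to Stat3 drive acute phase and regeneration programmes. Il6 had intensities of 52.1, 68.8 and 210.2 in knockout DNFB ears and 5.08, 5.30 and 2.56 in knockout control ears (log2 4.47 ± 1.00, at least 5.69-fold, adjusted p = 0.0056), with DNFB ear 3 the highest and a log2 difference of 3.87 without DNFB ear 3. Oncostatin M, encoded by Osm and produced by activated leukocytes, rose by 2.03 ± 0.35 on the log2 scale (at least 3.58-fold), and its receptor Osmr by 0.93 ± 0.17. Bcl3, a nuclear partner of NF-kappaB, rose by 2.76 ± 0.27. The receptor chain Il6ra fell by 0.81 on the log2 scale. In the tumour necrosis factor and NF-kappaB list, 14 of 23 tested genes rose and 0 fell; with the washing run as a block 7 rose. Lymphotoxin beta, encoded by Ltb and needed for lymphoid tissue organisation, had intensities of 109, 124 and 128 in knockout DNFB ears, against 18.5, 17.6 and 11.9 in knockout control ears (log2 2.94 ± 0.22, at least 6.93-fold, adjusted p = 7.3e-06). The receptor Tnfrsf1b rose by 2.48 ± 0.19 on the log2 scale, the adaptor Traf1 by 1.89 ± 0.26 and the survival factor Birc3 by 0.79 ± 0.11. Tnf itself was dim, with intensities of 18.0, 28.9 and 36.0 in knockout DNFB ears and 3.64, 7.75 and 14.1 in knockout control ears. Its call (adjusted p = 0.047) was lost with the washing run as a block (adjusted p = 0.54) and without a filter (adjusted p = 0.089), and without single ears its adjusted p was 0.051 without DNFB ear 1, 0.10 without DNFB ear 2, 0.13 without DNFB ear 3, 0.16 without control ear 1 and 0.091 without control ear 2.

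**Figure D2:**
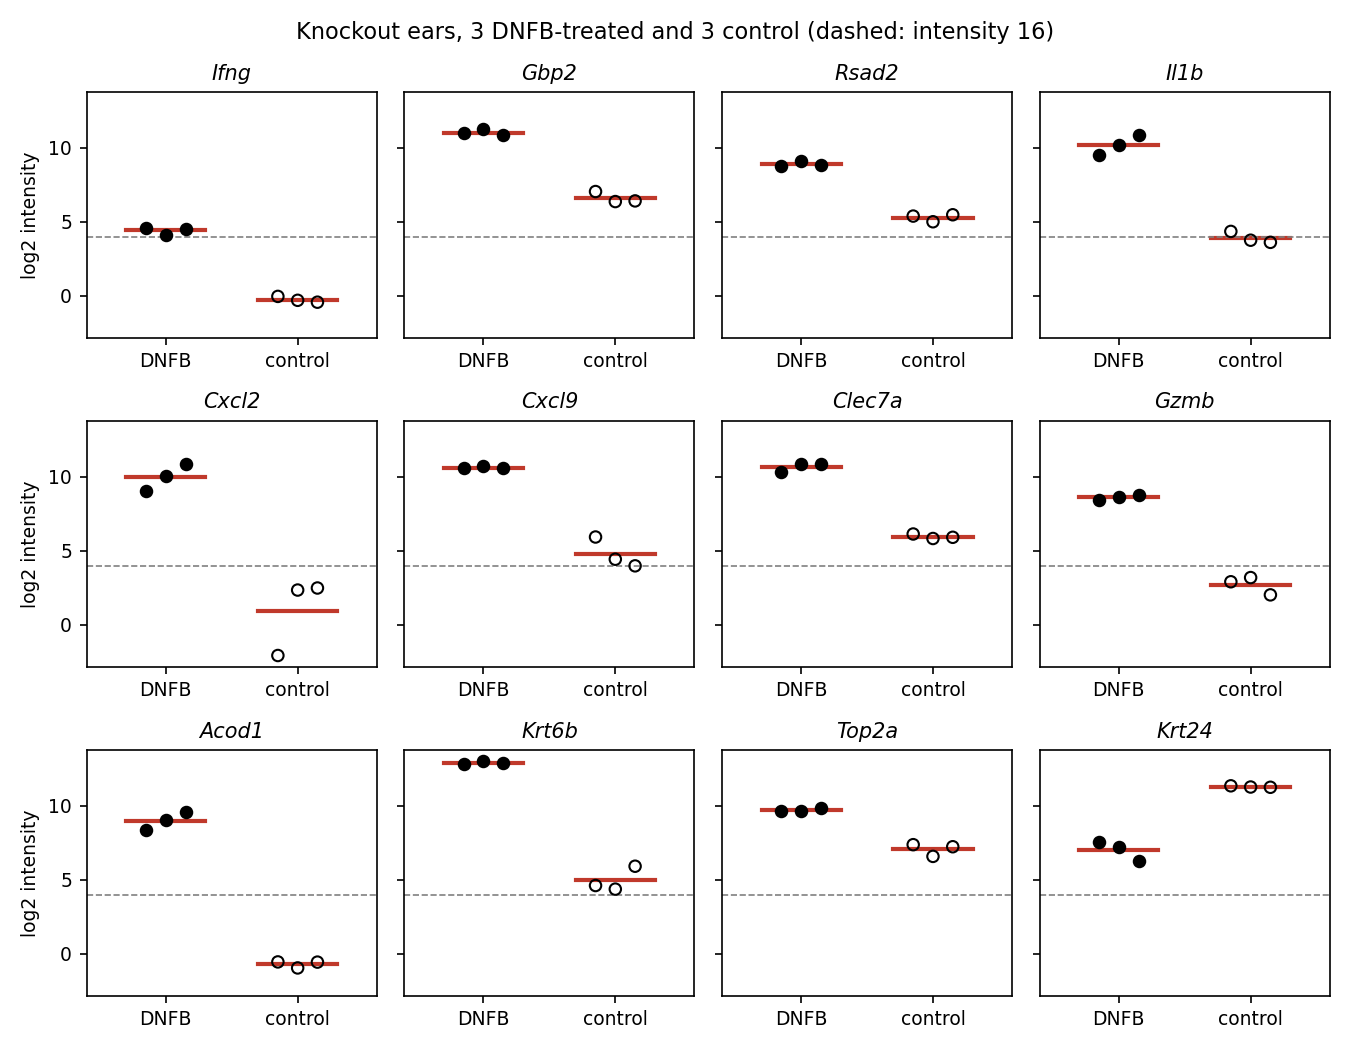
Intensity of 12 genes in each knockout ear on a log2 axis, with knockout DNFB ears (filled circles) left of knockout control ears (open circles) and a bar at each group's geometric mean. The groups are apart for all 12 genes; the control ears of Ifng, Cxcl2, Gzmb and Acod1 lie under the dashed line at an intensity of 16, and Krt24 is the only one of the 12 that is lower in DNFB ears.

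Chemokines that act on Cxcr2 bring neutrophils into tissue. Cxcl2 had intensities of 521, 1038 and 1815 in knockout DNFB ears, against 0.240, 5.10 and 5.61 in knockout control ears. The control ears were below the test limit, and the rise was at least 62.1-fold (log2 9.03 ± 1.04, adjusted p = 0.00011; 7.54 without control ear 1, 9.74 without control ear 2 and 9.81 without control ear 3). Cxcl5, made largely by epithelium, had intensities of 134, 223 and 437 in knockout DNFB ears and 4.07, 3.73 and 2.90 in knockout control ears (log2 6.06 ± 0.52, at least 14.7-fold, adjusted p = 1.7e-05). Cxcl3 rose by 4.54 ± 0.77 on the log2 scale (at least 6.09-fold; 3.85 without DNFB ear 3) and the receptor Cxcr2 by 2.83 ± 0.42 (at least 3.39-fold). The brightest Cxcl1 probe set had intensities of 34.9, 50.8 and 277 in knockout DNFB ears and 23.8, 18.6 and 21.5 in knockout control ears, and its log2 difference of 1.89 ± 0.82 did not pass the threshold (adjusted p = 0.092; 2.48 without DNFB ear 1 and 0.99 without DNFB ear 3). In all, 4 of 7 tested genes of this list rose and 0 fell.

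The promoters of 3 of these chemokines are shown because each holds the letters of an NF-kappaB site close to its start. The site, GGG followed by 2 bases of any kind and TTTCC, was searched on both strands of the same windows. It was in 3 of the 6 neutrophil chemokine genes with a window (50.0%), in 6 of 19 genes of the tumour necrosis factor and NF-kappaB list (31.6%), in 2 of 18 monocyte and T cell chemokine genes (11.1%), and in 2.10% of all 10745 windows. Capitals mark the site; Cxcl2 and Cxcl1 hold 2 that do not overlap, the first of Cxcl1 as its reverse complement.
Cxcl2 (GRCm38.p6 chr5:90903792-90903851, plus strand, 107 to 48 bases before the gene start): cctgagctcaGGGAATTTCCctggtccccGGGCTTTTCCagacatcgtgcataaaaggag
Cxcl3 (GRCm38.p6 chr5:90786018-90786077, plus strand, 83 to 24 bases before the gene start): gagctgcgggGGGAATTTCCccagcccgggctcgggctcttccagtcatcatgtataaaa
Cxcl1 (GRCm38.p6 chr5:90891146-90891205, plus strand, 99 to 40 bases before the gene start): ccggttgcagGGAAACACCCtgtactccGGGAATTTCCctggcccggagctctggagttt

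Of 26 tested chemokines for monocytes, T cells and eosinophils, 17 rose and 2 fell. Cxcl9, the interferon-induced ligand of Cxcr3 on effector T cells, had intensities of 1501, 1649 and 1514 in knockout DNFB ears, against 60.7, 21.5 and 15.8 in knockout control ears (log2 5.82 ± 0.67, adjusted p = 0.00011). Ccl3, a leukocyte attractant made by activated macrophages, had intensities of 116, 172 and 237 in knockout DNFB ears and 0.494, 2.67 and 6.21 in knockout control ears (log2 6.38 ± 0.80, at least 10.5-fold, adjusted p = 0.00017). In both genes all DNFB ears were above all control ears, which for Ccl3 was required by the rule for the steepest genes. The other Cxcr3 ligand on the list, Cxcl10, rose by 4.26 ± 0.87 on the log2 scale, and Ccl5, a product of activated T cells, by 5.50 ± 0.80 (at least 17.1-fold). The monocyte attractants Ccl2 (2.19 ± 0.28), Ccl7 (2.04 ± 0.30), Ccl8 (2.67 ± 0.12) and Ccl12 (2.56 ± 0.30) all rose. Cxcl14, made constitutively by epithelium, rose by 1.89 ± 0.23, and Cxcl16, a membrane-bound ligand of Cxcr6, by 1.64 ± 0.11. Control ears were near background for Ccl3 and Ccl5, and leaving out 1 ear moved these values: the log2 difference of Ccl3 was 5.37 without control ear 1 and 7.19 without control ear 3, and that of Ccl5 was 4.37 without control ear 2 and 6.11 without control ear 3. Of the chemokine receptors, 9 of 17 tested rose and 2 fell, with Ccr1 higher by 4.57 ± 0.29, Ccr2 by 3.07 ± 0.17 and Cxcr3 by 1.46 ± 0.19.

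Leukocytes leave the blood by rolling on selectins and then holding on through integrins. Of 16 tested adhesion genes 15 rose and 0 fell. On the endothelial side, Sele, the selectin of cytokine-activated vessels, rose by 1.58 ± 0.15 on the log2 scale, Vcam1 by 1.35 ± 0.25 (adjusted p = 0.071 in the knockout arrays alone with the mouse as a block) and Icam1 by 1.16 ± 0.11. On the leukocyte side, the integrin chain Itgb2 rose by 2.43 ± 0.17, its partner Itgam by 2.70 ± 0.25, and Selplg, the ligand of selectins, by 1.93 ± 0.15. The call of Selp (log2 1.22 ± 0.28) was lost with the washing run as a block (adjusted p = 0.16).

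Markers of myeloid cells were higher. Of 20 tested monocyte and macrophage markers 20 rose, with a median log2 fold change of 2.68, or 2.64 with ears below 16 set to 16. Clec7a, the beta-glucan receptor dectin-1, had intensities of 1246, 1830.2 and 1860.5 in knockout DNFB ears, against 69.9, 56.6 and 59.9 in knockout control ears. Its 26.1-fold rise had a small error for its size (log2 4.71 ± 0.15, adjusted p = 1.5e-07). The immunoglobulin receptor Fcgr4 rose by 4.69 ± 0.32 on the log2 scale and Ms4a4c by 4.64 ± 0.30. Adgre1, which encodes the F4/80 antigen, rose by 1.53 ± 0.11 and the growth factor receptor Csf1r by 0.85 ± 0.11. Summed over the list, intensities ran from 17122 to 21679 in knockout DNFB ears and from 4570.5 to 4934 in knockout control ears. Of 12 tested markers of tissue-resident macrophages 3 rose and 1 fell, against 21.2% higher and 24.6% lower over all genes.

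Of 13 tested neutrophil markers 9 rose and 1 fell. S100a8, a subunit of calprotectin carried by neutrophils and made by stressed keratinocytes, had intensities of 3543, 4806 and 5801 in knockout DNFB ears, against 26.2, 69.6 and 454 in knockout control ears (log2 5.62 ± 0.83, adjusted p = 0.00048). Control ear 3 stood above the other control ears, and the S100a8 difference was 4.70 without control ear 1 and 6.76 without control ear 3. Control ear 3 was also the highest control for the partner subunit S100a9 (3598, 4797 and 5560.3 in knockout DNFB ears, against 28.4, 38.3 and 223 in knockout control ears; log2 6.20 ± 0.68, 7.12 without control ear 3). The C-type lectins Clec4d (log2 4.80 ± 0.35) and Clec4e (6.21 ± 0.98, at least 11.5-fold) and the granulocyte growth factor receptor Csf3r (3.98 ± 0.52, at least 12.6-fold) rose.

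Some T cell transcripts and most cytotoxic cell transcripts were also higher. Cd3d, a chain of the T cell receptor complex, had intensities of 192, 158 and 194 in knockout DNFB ears, against 56.6, 70.1 and 44.7 in knockout control ears (log2 1.68 ± 0.19, adjusted p = 9.1e-05), with no overlap. The list of T cell receptor and coreceptor genes had 8 of 15 tested genes higher and 1 lower. Icos, a costimulator of activated T cells, rose by 2.62 ± 0.14 on the log2 scale (at least 4.95-fold) and the adhesion receptor Cd2 by 2.21 ± 0.23 (at least 4.16-fold). Of 15 tested cytotoxic and natural killer genes 12 rose. Gzmb, the protease that triggers apoptosis in target cells, had intensities of 346, 390.1 and 431 in knockout DNFB ears, against 7.51, 9.13 and 4.07 in knockout control ears (log2 5.89 ± 0.42, at least 24.2-fold, adjusted p = 6.2e-06). Gzma rose by 5.45 ± 0.26 on the log2 scale (at least 26.0-fold) and the activating receptor Klrk1 by 2.22 ± 0.27. Of 12 tested checkpoint and regulatory T cell genes 9 rose and 1 fell. Cd274, the ligand of PD-1, rose by 1.87 ± 0.15, and Havcr2, the inhibitory receptor TIM-3, by 1.79 ± 0.12. Foxp3, Pdcd1 and Il10 of this list lay below the test limit, so the counts do not report on them.

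Of 14 tested Langerhans and dendritic cell markers 5 rose and 3 fell, with a median log2 fold change of 0.14, against 21.2% higher and 24.6% lower over all genes. Cd207, the langerin of Langerhans cells, had intensities of 46.7, 15.9 and 37.3 in knockout DNFB ears, against 217, 178 and 208 in knockout control ears. It fell by 2.73 on the log2 scale (6.63-fold, adjusted p = 0.00018). No DNFB ear reached the lowest control ear, which the rule for the steepest genes required. Epcam, which Langerhans cells share with keratinocytes, fell by 0.67. Fscn1, the actin bundler of mature dendritic cells, rose by 2.41 ± 0.19. Among mast cell and basophil genes Hdc, which makes histamine, rose by 3.85 ± 0.40, and Fcer1a, a chain of the immunoglobulin E receptor, by 2.10 ± 0.19. Most of that list did not change: of 13 tested 4 rose, 1 fell and 8 did not pass the threshold, with a median of 0.31. None of 10 tested melanocyte genes passed the threshold in either direction (limma; 3 had an unadjusted p under 0.05).

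Genes of macrophage defence metabolism were mostly higher. Acod1, the macrophage enzyme that makes itaconate, had intensities of 332, 527 and 751 in knockout DNFB ears, against 0.688, 0.519 and 0.682 in knockout control ears. With the control ears under the test limit the rise was at least 31.8-fold (log2 9.67 ± 0.62, adjusted p = 3.7e-06). Arg1, the arginase of alternatively activated macrophages and wounds, rose by 3.56 ± 0.39 on the log2 scale. The NADPH oxidase subunits Cybb (2.26 ± 0.14), Ncf1 (1.83 ± 0.16) and Ncf4 (2.01 ± 0.20), which build the superoxide burst, rose together. Of the list that holds these enzymes 10 of 12 tested genes rose.

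Acute phase and antimicrobial genes were nearly all higher, 14 of 16 tested with 1 lower. Saa3, a serum amyloid A made locally, had intensities of 1103, 1048 and 1888 in knockout DNFB ears, against 6.14, 0.704 and 18.3 in knockout control ears (log2 8.24 ± 1.11, at least 77.5-fold, adjusted p = 0.00027). Without single ears its log2 difference was 6.93 without control ear 2 and 9.28 without control ear 3. The iron-withholding protein Lcn2 rose by 3.37 ± 0.33 on the log2 scale, the protease inhibitor Slpi by 4.05 ± 0.28 and the beta-defensin Defb4 by 4.27 ± 0.32 (at least 10.6-fold). Orm1, an acute phase glycoprotein made mainly in liver, fell by 2.35. Of the complement genes 11 of 13 rose, including Cfb of the alternative pathway (2.39 ± 0.20), the anaphylatoxin receptor C3ar1 (2.62 ± 0.13) and C1qb of the classical pathway (1.75 ± 0.12). Pattern recognition genes rose in 13 of 17 cases and fell in 2.

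Genes of eicosanoid metabolism, which turns arachidonic acid into prostaglandins and leukotrienes, split: 11 of 26 tested rose and 9 fell. Over all genes 21.2% were higher and 24.6% lower. Ptgs2, the inducible cyclooxygenase, had intensities of 133, 219 and 414 in knockout DNFB ears, against 1.49, 1.98 and 10.9 in knockout control ears (log2 6.17 ± 0.67, at least 14.4-fold, adjusted p = 7.7e-05; 7.06 without control ear 3). Ptges, which makes prostaglandin E2 from its product, rose by 1.11 ± 0.13 on the log2 scale, and Alox5ap, the partner of 5-lipoxygenase, by 1.67 ± 0.12. Lower genes included the prostacyclin synthase Ptgis, which fell by 1.15 on the log2 scale, the prostaglandin F receptor Ptgfr, which fell by 1.27, and the epidermal lipoxygenase Alox12, which fell by 1.66.

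The epidermis changed keratins. Krt6b, which epidermis makes when it is wounded or growing fast, had intensities of 7238, 8138 and 7568 in knockout DNFB ears, against 24.4, 20.6 and 60.1 in knockout control ears. This was a 245-fold rise (log2 7.94 ± 0.45, adjusted p = 1.8e-06), with control ear 3 the brightest control. Krt16, its type I partner, had intensities of 4007, 5019 and 4513 in knockout DNFB ears and 42.0, 26.6 and 121 in knockout control ears, and here too control ear 3 was the highest of its group. Its log2 difference was 6.45 ± 0.48 (adjusted p = 8.1e-06; 7.07 without control ear 3), that of Krt6a 4.32 ± 0.11 and that of Krt17 2.39 ± 0.13. Of the wound keratin list 5 of 7 tested rose and 1 fell. Other epidermal keratins ran the other way, with 3 of 13 higher and 8 lower. Krt24 had intensities of 189.7, 147 and 77.9 in knockout DNFB ears, against 2573, 2432 and 2403 in knockout control ears. It fell by 4.25 on the log2 scale, a 19.0-fold decrease (adjusted p = 2.7e-06) and the steepest among genes with a bright group. Krt15, a keratin of basal and bulge cells, fell by 1.96, and Krt2 of the upper epidermis fell by 0.92.

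The cornified envelope, the protein shell that replaces the plasma membrane of dead keratinocytes, changed by gene family. Of its 27 tested genes 14 rose and 11 fell. Late cornified envelope genes of group 3, which belong to injured and psoriatic skin in humans, were higher. Lce3f had intensities of 1026, 2051 and 1619 in knockout DNFB ears, against 21.3, 25.1 and 41.6 in knockout control ears (log2 5.74 ± 0.42, adjusted p = 7.2e-06). Lce3b (log2 2.92 ± 0.34) and Lce3c (3.66 ± 0.30) rose too. Group 1 genes, which belong to undisturbed epidermis, were lower: all tested Lce1 genes but Lce1f fell. Lce1m had intensities of 447, 306 and 273 in knockout DNFB ears, against 2260.2, 2494 and 2177 in knockout control ears, and fell by 2.79 on the log2 scale (adjusted p = 2.1e-06). The small proline-rich genes Sprr2f (log2 6.69 ± 0.33, at least 33.1-fold), Sprr2h (5.45 ± 0.49) and Sprr1a (1.51 ± 0.14), cross-linked into the envelope in stressed skin, rose. So did Ivl, encoding involucrin, by 1.17 ± 0.18, while Lor, encoding its main structural protein loricrin, fell by 0.76. Members of the Sprr2, Lce and Stfa families are near-identical in sequence, so a probe set of one may also report its relatives.

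The enzymes that process the stratum corneum rose in 11 of 23 cases and fell in 3. Kallikreins, the proteases that cut corneodesmosomes, were on both sides: Klk13 rose by 5.36 ± 0.23 on the log2 scale, Klk6 by 2.78 ± 0.19 and Klk10 by 1.07 ± 0.17, while Klk5 fell by 0.75. Barrier lipid enzymes, which make ceramides and bind them to the envelope, were lower in 12 of 22 cases and higher in 1, and 7 were lower in the knockout arrays alone with the mouse as a block. Aloxe3 and Alox12b, the lipoxygenases that oxidise ceramide-bound linoleate, fell by 1.62 and 1.47 on the log2 scale. Elovl4, which makes the ultra-long fatty acids of barrier ceramides, fell by 0.86. Of junction genes 4 of 23 rose and 11 fell, 7 of them with the washing run as a block. Gap junction genes Gjb2 (3.20 ± 0.24) and Gjb6 (3.46 ± 0.26) were higher. The tight junction gene Ocln fell by 1.26 and Cdsn, which encodes corneodesmosin, fell by 0.86. Stfa2l1 and Stfa3, cysteine protease inhibitors of the stefin family, rose by 7.85 ± 0.54 (at least 82.5-fold; 8.57 without control ear 3) and 6.42 ± 0.42 (7.01 without control ear 3). Epgn, a ligand of the epidermal growth factor receptor, rose by 4.99 ± 0.44 (at least 17.8-fold), and Btc, another, fell by 1.51.

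Cell division genes were almost all higher. Of 32 tested mitosis genes 30 rose and 0 fell, with a median log2 fold change of 2.32. The medians in the 3 knockout mice were 2.13, 2.69 and 2.17. Bub1, a spindle checkpoint kinase, had intensities of 204, 184 and 159.7 in knockout DNFB ears, against 23.8, 5.49 and 21.3 in knockout control ears (log2 3.69 ± 0.45, at least 9.05-fold, adjusted p = 0.00016; 3.01 without control ear 2). Top2a, which untangles DNA before division, had intensities of 783, 797 and 912 in knockout DNFB ears and 165, 95.2 and 149 in knockout control ears (log2 2.64 ± 0.19, adjusted p = 6.9e-06). In neither gene did the groups overlap, which held for 56.6% of all genes. Cdk1, the mitotic kinase, rose by 2.75 ± 0.11 on the log2 scale, Kif2c, a kinesin that removes tubulin from microtubule ends, by 3.30 ± 0.20, and Mki67, the common marker of cycling cells, by 2.36 ± 0.25. Of 31 tested genes of DNA replication 30 rose and 0 fell, with a median of 1.31. They included the helicase subunit Mcm5 (2.19 ± 0.11), the nucleotide-making enzyme Rrm2 (2.08 ± 0.10) and Ccne1, which carries cells into S phase (2.68 ± 0.23, at least 5.48-fold). Cdkn1c, the cell cycle inhibitor p57, fell by 2.12, and Cdkn1a, the inhibitor p21, fell by 0.54.

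Promoters of mitosis genes are shown for the cell cycle homology region, the element through which these genes are kept silent outside division. Its letters, TTTGAA, were searched on both strands. Of 25 mitosis genes with a window 18 (72.0%) held it, against 4 of 26 DNA replication genes (15.4%) and 14.6% of all 10745 windows. The CCAAT box, which often lies near it, was in 20 of the 25 mitosis windows (80.0%) and in 42.0% of all. The capitals mark the match to these 6 letters that lies furthest before the gene start, as its reverse complement in Kif2c. Such a match does not identify a working element. Further matches, with first bases at -15 in Cdk1 and -23 in Top2a from the gene start, are not shown.
Kif2c (GRCm38.p6 chr4:117178826-117178885, minus strand, 113 to 54 bases before the gene start): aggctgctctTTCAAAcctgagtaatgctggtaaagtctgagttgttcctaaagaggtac
Cdk1 (GRCm38.p6 chr10:69352934-69352993, minus strand, 81 to 22 bases before the gene start): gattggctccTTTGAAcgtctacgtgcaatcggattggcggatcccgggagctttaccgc
Top2a (GRCm38.p6 chr11:99024319-99024378, minus strand, 189 to 130 bases before the gene start): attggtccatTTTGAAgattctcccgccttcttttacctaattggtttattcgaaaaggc

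Hair follicle keratins and keratin-associated proteins, the structural proteins of the growing hair shaft and its inner root sheath, rose in 19 of 26 tested genes and fell in 0. Their median log2 differences between the ears of 1 mouse were 5.47, 5.00 and 2.08 in knockout mice 1, 2 and 3, and 3.00, 3.71 and 0.75 with ears below 16 set to 16. Krt25, a keratin of the inner root sheath, had intensities of 1715, 1542 and 379 in knockout DNFB ears, against 3.79, 13.7 and 37.5 in knockout control ears (log2 6.33 ± 0.92, at least 47.1-fold, adjusted p = 0.00045). Krt34, a keratin of the hair cortex, had intensities of 139, 213 and 35.8 in knockout DNFB ears and 1.80, 0.588 and 1.29 in knockout control ears (log2 6.52 ± 0.82, at least 6.38-fold, adjusted p = 0.00017). DNFB ear 3 was the lowest of its group for both, though still above every control ear, as the rule for the steepest genes required. The log2 difference of Krt25 was 7.03 without DNFB ear 3, 5.46 without control ear 1 and 7.12 without control ear 3, and that of Krt34 was 7.28 without DNFB ear 3. Krt71 (log2 5.17 ± 0.81; 6.11 without DNFB ear 3), Krt27 (4.26 ± 0.75; 5.16 without DNFB ear 3) and Krtap11-1 (7.18 ± 0.95, at least 10.1-fold; 6.48 without DNFB ear 2 and 8.23 without DNFB ear 3) rose as well. Genes of follicle stem cells and hair cycle control behaved differently: of 18 tested 2 rose and 9 fell. Lgr6, a stem cell receptor of the upper follicle, fell by 1.26 on the log2 scale, the Wnt inhibitor Wif1 fell by 1.65 and the transcription factor Sox9 fell by 1.15.

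**Figure D3:**
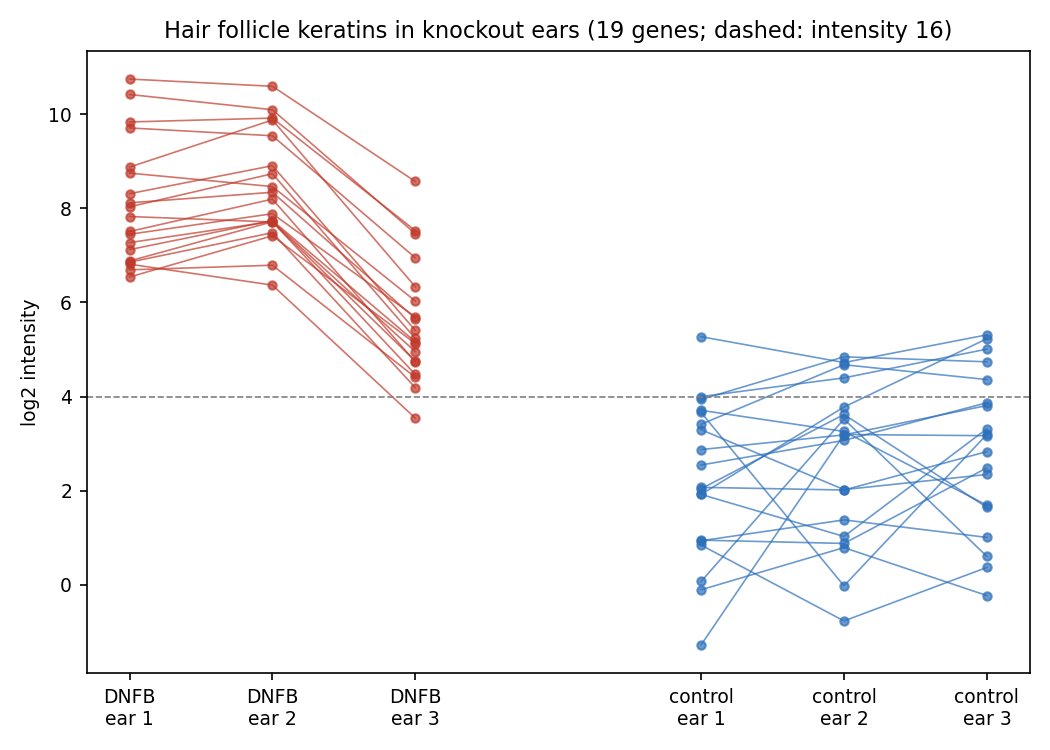
Intensity on a log2 axis of hair keratin genes whose response passed the threshold, in each knockout ear: knockout DNFB ears 1 to 3 on the left, knockout control ears 1 to 3 on the right, 1 line per gene. DNFB ear 3 was the lowest DNFB ear for 19 of the 19 genes, and most control ears lie lower still.

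Lipid synthesis fell almost throughout. Of 22 tested genes of lipogenesis and the sebaceous gland 20 fell and 0 rose, with a median log2 fold change of -1.15. Far2, which makes the fatty alcohols of sebum waxes, had intensities of 466, 325 and 261 in knockout DNFB ears, against 1133, 1385 and 1524 in knockout control ears. It fell by 1.97 on the log2 scale (adjusted p = 6.2e-05), without overlap. Fa2h, the fatty acid hydroxylase of sebum and myelin lipids, fell by 2.11, and Scd1, the stearoyl-CoA desaturase of the sebaceous gland, fell by 0.90. Fasn, the fatty acid synthase, fell by 1.07, and Srebf1, a transcription factor that controls it, fell by 1.24. Of 15 tested adipocyte genes 11 fell. Adipoq, the adiponectin gene, fell by 1.37 on the log2 scale, and Lep, which encodes leptin, fell by 1.64.

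Cholesterol synthesis fell in 16 of 19 tested genes and rose in 0, with a median log2 fold change of -0.78. In the 6 knockout arrays alone, with the mouse as a block, 9 fell. Msmo1, a sterol oxidase late in the pathway, had intensities of 1175, 1007 and 819.6 in knockout DNFB ears, against 1898, 2479 and 2528 in knockout control ears (log2 -1.21 ± 0.15, adjusted p = 0.00021). Sqle, the squalene epoxidase that commits the pathway to sterols, fell by 0.49 on the log2 scale (adjusted p = 0.11 with that block), and Hmgcs1, at its head, fell by 0.80. In wild-type ears 6 of these genes fell and 1 rose, with a median of -0.19. The wild-type shares over all genes were 19.0% higher and 24.0% lower. For Msmo1 the wild-type log2 fold change was -0.53 ± 0.15, and the difference between the knockout and the wild-type response was -0.68 ± 0.22 (unadjusted p = 0.011, adjusted p = 0.68). In all, 11 of the 19 genes had an unadjusted p under 0.05 for that difference, against 6.29% of all genes, and none passed after adjustment. Summed over the list, control intensities ran from 16024 to 18962 in knockout ears and from 13342 to 14953 in wild-type ears. With DNFB they ran from 9470 to 11472 in knockout ears and from 10976 to 12421.5 in wild-type ears.

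Glycolysis, which turns glucose into pyruvate and lactate, is the main fuel route of activated leukocytes and dividing cells. Of 21 tested genes of glycolysis and lactate transport 13 rose and 4 fell. The lactate exporter Slc16a3 rose by 1.96 ± 0.23 on the log2 scale, the leukocyte hexokinase Hk3 by 1.84 ± 0.16 and the glucose transporter Slc2a3 by 1.74 ± 0.28. Among those that fell, Pfkm, the muscle phosphofructokinase, fell by 0.96, and Slc2a4, the insulin-regulated glucose transporter of muscle and fat, fell by 0.78. Skeletal muscle genes were lower: of 26 tested sarcomere genes 21 fell and 1 rose, with a median of -1.14, and 13 fell with the washing run as a block. Mylpf, a myosin light chain of fast fibres, had intensities of 1108, 1141 and 1238 in knockout DNFB ears, against 2423, 2849 and 2426 in knockout control ears (log2 -1.14 ± 0.16, adjusted p = 0.00038). No ribosomal protein gene passed the threshold in either direction among 13 tested (limma; 0 had an unadjusted p under 0.05).

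The circadian clock is a feedback loop in which Clock and Arntl switch on Per, Cry and Nr1d genes that later repress them. Of 18 tested clock genes 13 fell and 2 rose, with a median log2 fold change of -1.20. Dbp, an output gene of the loop, had intensities of 339, 309.8 and 293 in knockout DNFB ears, against 688, 881 and 655 in knockout control ears (log2 -1.23 ± 0.16, adjusted p = 0.00021). Per3 fell by 1.51 on the log2 scale, Nr1d1 fell by 1.62, and Hlf, which binds the same sites as Dbp, fell by 2.10. Arntl, in the activating arm, fell by 1.17, while Nfil3, which opposes Dbp and is induced in immune cells, rose by 1.58 ± 0.20. Of the glucocorticoid list 3 of 14 tested genes rose and 7 fell, against 21.2% higher and 24.6% lower over all genes. Tsc22d3, a glucocorticoid-induced leucine zipper protein, fell by 1.31, Zbtb16, another steroid-induced gene, fell by 1.41, and the receptor Nr3c1 fell by 0.90.

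Connective tissue genes differed by list. Of 24 tested collagen genes 3 rose and 13 fell, and 7 fell with the washing run as a block. Col12a1, a fibril-associated collagen, rose by 1.21 ± 0.11 on the log2 scale, and Col6a1 of microfibrils fell by 0.94. Among matrix proteases and their inhibitors 11 of 24 rose and 6 fell, and with the washing run as a block 6 rose. The inhibitor Timp1 had intensities of 582, 922 and 1034 in knockout DNFB ears, against 62.0, 76.8 and 85.9 in knockout control ears (log2 3.47 ± 0.25, adjusted p = 6.3e-06). Its relatives Timp2 (log2 -1.25 ± 0.10) and Timp3 (-1.40 ± 0.13) fell, as did the gelatinase Mmp2 (-0.76 ± 0.09). Tnc, the tenascin of healing wounds, rose by 2.38 ± 0.23. Of 12 tested genes of hyaluronan metabolism 6 rose and 0 fell. Has3, a hyaluronan synthase, had intensities of 73.3, 114 and 108 in knockout DNFB ears and 0.593, 1.20 and 0.824 in knockout control ears, and rose by at least 6.05-fold (log2 6.85 ± 0.78, adjusted p = 9.8e-05).

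Cartilage and nerve genes were mostly lower. Of 18 tested cartilage genes 15 fell and 1 rose. Acan, the aggrecan core protein, fell by 1.45 on the log2 scale and Comp, a cartilage matrix protein, fell by 1.27. Of 11 tested Schwann cell and nerve genes 6 fell and 1 rose, with Mbp of myelin lower by 3.12-fold (log2 -1.64 ± 0.16). Slc6a2, the noradrenaline transporter of sympathetic nerves, had intensities of 36.2, 27.8 and 28.0 in knockout DNFB ears, against 258, 228 and 174 in knockout control ears. It fell by 2.84 on the log2 scale (adjusted p = 2.1e-06). The 3 other tested Slc6a2 probe sets were also called lower, with smaller log2 differences of -1.29 to -0.73. Calcb, which encodes a calcitonin gene-related peptide, fell by 1.80, and Ramp1, a subunit of its receptor, fell by 0.91. Of 16 tested vessel markers 4 rose and 3 fell, near the shares of 21.2% higher and 24.6% lower over all genes. Among other steeply lower genes were Angptl7, an angiopoietin-like secreted protein (-3.41 ± 0.16), Gsta3, a glutathione transferase (-3.10 ± 0.29, at least 4.27-fold lower), Ces1d, a carboxylesterase of fat and liver (-2.53 ± 0.32), and Fmo2, a flavin monooxygenase (-2.53 ± 0.18).

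The enzymes and receptors of endocannabinoid signalling were examined because its main receptors are deleted here. Of 17 tested genes 5 rose and 6 fell, or 3 with the washing run as a block. Without that block the shares over all genes were 21.2% higher and 24.6% lower. Mgll, the lipase that breaks down 2-arachidonoylglycerol and also serves fat cells, had intensities of 976, 780.0 and 545 in knockout DNFB ears, against 2514, 3329.6 and 3003 in knockout control ears. It fell by 1.97 on the log2 scale (adjusted p = 3.4e-05), and Abhd6, a further hydrolase of that lipid, fell by 0.56. With the mean of its probe sets in place of the brightest one, the Abhd6 difference was -0.27 and did not pass (adjusted p = 0.12). Ppara, a nuclear receptor for fatty acid ethanolamides, fell by 1.76. Naaa, the lysosomal amidase of macrophages, rose by 1.47 ± 0.13, and Gpr18, a receptor of lymphocytes and myeloid cells, by 2.22 ± 0.22. Faah, which degrades anandamide, had a log2 difference of -0.64 ± 0.14, and its call was lost with the washing run as a block (adjusted p = 0.11). The Cnr1 probe set was near background, with intensities of 19.8, 4.88 and 5.74 in knockout DNFB ears and 13.7, 11.2 and 8.54 in knockout control ears, and did not pass (adjusted p = 0.57). That of Cnr2 gave 30.1, 39.4 and 28.6 in knockout DNFB ears and 21.3, 9.85 and 10.2 in knockout control ears (log2 1.33 ± 0.38, at least 1.84-fold, adjusted p = 0.018), a call lost with the washing run (adjusted p = 0.071) and with the mouse as a block (adjusted p = 0.058). Without single ears the adjusted p of Cnr2 was 0.061 without DNFB ear 2, 0.066 without control ear 2 and 0.061 without control ear 3. Where these probe sets lie relative to the deleted parts is not known, so they do not check the deletions.

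Setting the knockout response beside that of wild-type ears tested each gene for a difference between the responses. One gene passed after adjustment (0.00747% of genes), Slco1a5, an organic anion transporter. It had intensities of 18.6, 18.5 and 17.5 in knockout DNFB ears and 7.05, 8.47 and 6.54 in knockout control ears, a log2 fold change of 1.31 ± 0.14 (at least 1.14-fold). In wild-type ears the intensities were 22.9, 20.6 and 28.5 with DNFB and 2.12, 2.25 and 1.88 without, a log2 fold change of 3.51 ± 0.14 (at least 1.49-fold). The responses differed by -2.20 ± 0.20 on the log2 scale (adjusted p = 0.016). The control ears of both genotypes were below the test limit of 16, and with 16 added to each intensity the difference was -0.59 (adjusted p = 0.43). The call was also lost with the mouse as a block (adjusted p = 0.57), with the washing run as a block (adjusted p = 0.12), with no filter on low intensities (adjusted p = 0.091), with a trend and robust variance model (adjusted p = 0.57), and when any of 6 single ears was left out (adjusted p from 0.051 to 0.093). Before adjustment 842 genes (6.29%) had a p under 0.05. Of the genes called in knockout ears, 4719 (77.1%) were called in the same direction in wild-type ears, which made up 81.9% of the wild-type calls, and 1 gene was called in opposite directions. The genes called in knockout ears had a median absolute log2 fold change of 0.76 in knockout ears and 0.66 in wild-type ears. These genes were picked by their knockout call, which favours a larger knockout value, so the medians do not rank the responses.

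None of the genes next after Slco1a5 by p-value passed adjustment. Klk6 had a log2 fold change of 2.78 ± 0.19 in knockout ears and 4.62 ± 0.19 in wild-type ears (difference -1.83 ± 0.26, adjusted p = 0.21). Degs2, which makes phytoceramides of the skin barrier, had 0.50 ± 0.21 in knockout ears and 2.24 ± 0.21 in wild-type ears (difference -1.75 ± 0.30, adjusted p = 0.31). Ly6i, a surface antigen of myeloid cells, had 1.18 ± 0.32 in knockout ears and 4.00 ± 0.32 in wild-type ears (difference -2.83 ± 0.46, adjusted p = 0.26), and its call in knockout ears was lost with the washing run as a block (adjusted p = 0.13). Untreated ears of the 2 genotypes differed in these genes. Geometric mean intensities of knockout and wild-type control ears were 388 and 135 for Klk6, and 179 and 52.9 for Degs2. For Ly6i they were 19.5 and 3.29, the latter below 16. Knockout and wild-type DNFB ears had 2671 and 3310 for Klk6, 253 and 250 for Degs2, and 44.1 and 52.8 for Ly6i. An unadjusted p under 0.05 was found for 12 of 27 cornified envelope genes, 13 of 22 barrier lipid genes and 11 of 23 cornification enzymes, against 6.29% of all genes. For Lce1m the fold change was -2.79 ± 0.16 in knockout ears and -2.16 ± 0.16 in wild-type ears on the log2 scale (adjusted p of the difference = 0.75). Hair keratins gave 12 higher genes in wild-type ears where knockout ears gave 19, and 1 of 26 had an unadjusted p under 0.05 for the difference. The mitosis median was 2.32 in knockout ears and 1.77 in wild-type ears, with 9 of 32 genes under that p. Counted by sign alone, the knockout response was below the wild-type response for 19 of 19 cholesterol synthesis genes and 22 of 22 barrier lipid genes. The knockout response was above it for 31 of 32 mitosis genes, and below it for 46.8% of all tested genes. Genes of 1 pathway are not independent of each other, and the wild-type arrays lay mostly in other washing runs than the knockout arrays, so their part in these differences was not tested.

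**Figure D4:**
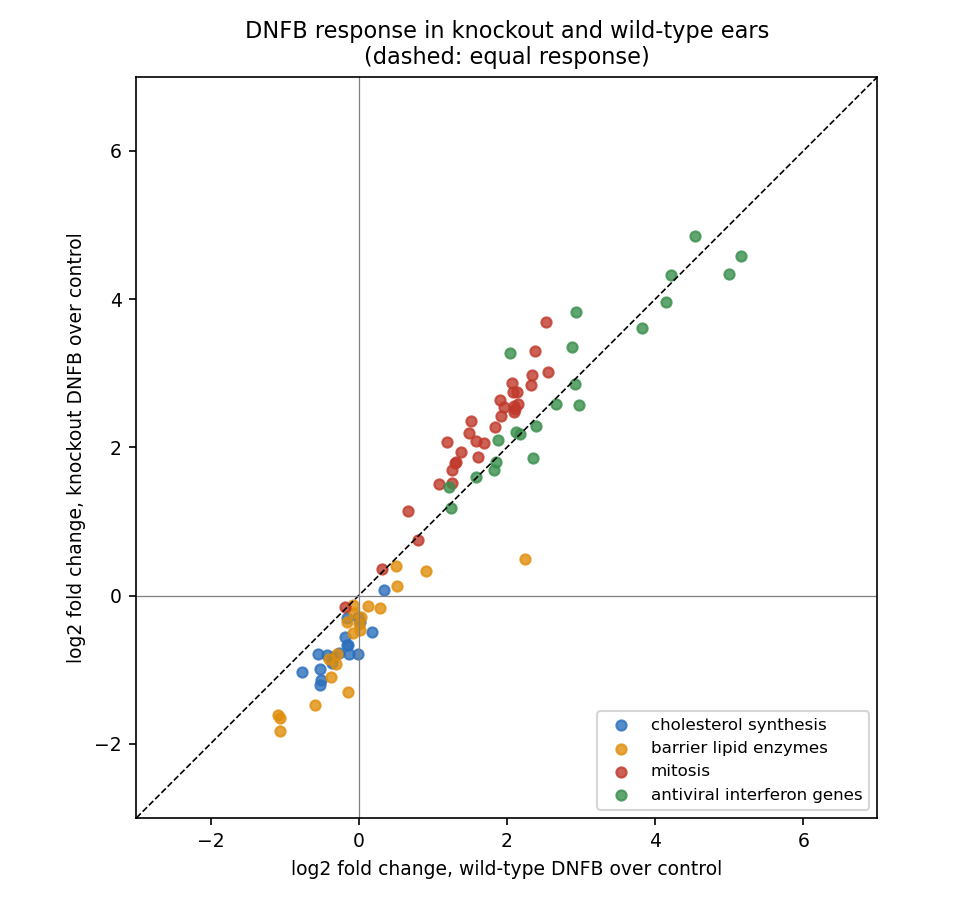
Log2 fold change of the DNFB response in knockout ears (vertical) against that in wild-type ears (horizontal) for 4 gene lists, 1 point a gene, with the line of equal response. All 19 cholesterol synthesis and all 22 barrier lipid genes lie below the line, 31 of 32 mitosis genes above it, and antiviral genes on both sides.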

How the data were processed

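Whole-ear RNA from 12 ears was hybridised to Affymetrix mouse arrays, 1 ear to an array. The deposited values are intensities on a linear scale that the authors normalized with GCRMA, per the submitters' processing notes; its version is not given in the sources used here. Their logarithm to base 2 was taken here from the deposited intensities. No value is at 0, and the number of arrays, rather than a read depth, limits the precision.

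The 12 arrays were fitted together in limma 3.58.1 (R 4.3.3), with 1 coefficient for each of the 4 groups taken from the labels. The knockout response is knockout DNFB minus knockout control, and the difference of responses is the knockout response minus the wild-type response. Of 45101 probe sets, 29460 reached 16 on 3 or more arrays and were tested, with moderated statistics and Benjamini-Hochberg adjustment over all of them; the threshold was an adjusted p of 0.05. The ± values beside log2 differences are standard errors of this fit, from 3 ears a group. The platform annotation gave 34945 probe sets 1 symbol, 932 several and 9160 none, and 34741 of the first kind were matched to RefSeq by gene ID. Each gene was read from the brightest of its tested probe sets, by mean over the 12 arrays, that carry no other symbol. Where a group's mean lay below 16 a fold is given as at least the other group's mean over that group's mean with each ear below 16 set to 16, a rule extended after seeing the data to groups with only some ears below 16; the fitted log2 difference beside it carries the test.

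Genes in the text are members of 71 lists holding 1329 genes (1136 tested, 65 below the limit, 128 with no single-symbol probe set in the annotation used), the steepest called genes of the knockout response by fitted difference, those with the smallest p for the difference of responses, and both receptors. The steepest genes were taken only from those whose knockout groups did not overlap. The members and lists were chosen with earlier results of these data known, and within a list genes whose call held under the alternatives were preferred for naming, so the named genes are steadier than their lists. Lists are given as counts and medians, with no test of the list.

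The labels place both ears of a mouse under 1 number, so the numbers pair the ears by animal. Deviations of same-mouse ears from their group means correlated at -0.0043, 0.027 and 0.080 in knockout mice and at 0.022, 0.047 and 0.0063 in wild-type mice. The washing runs were read from the instrument records as groups of arrays separated by more than 30 min. Alternatives were other filters, scalings and variance models, the mouse or the washing run as a block, and each ear left out. The fit was tested on simulated data.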

Additional observations from a re-analysis of the deposited data

Results flagged for a closer look

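Slco1a5, an organic anion transporter gene, was the only gene whose response differed between the genotypes after adjustment. The knockout response minus the wild-type response was -2.20 on the log2 scale (adjusted p = 0.016); the rise with DNFB was smaller in knockout ears than in wild-type ears. In the 3 knockout DNFB ears its intensities lay just above 16, the limit for testing a probe set, and all control ears lay below it. The call was lost with the mouse or the washing run as a block, without a filter, and with a trend and robust variance model. It was also lost with 16 added to each intensity and when some single ears were left out. It held with median centring, with quantile normalization and when other single ears were left out.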

How the results depend on the processing

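With the washing run as a block, the knockout response had 2801 probe sets higher and 2990 lower, and the wild-type response 2475 higher and 3149 lower. The same block left 7 genes higher in the tumour necrosis factor and NF-kappaB list and 6 in matrix proteases, and 7 lower in collagens, 7 in junction genes, 3 in the endocannabinoid list and 13 in the sarcomere list. The cause was not tested, although in this fit knockout DNFB ears are compared with control ear 3 alone. With the mouse as a replicate block over 12 arrays, 4578 probe sets were higher and 5971 lower in the knockout response. With that block in the 6 knockout arrays alone, which leaves fewer residual degrees of freedom, the counts were 3029 higher and 3652 lower, and 9 cholesterol, 7 barrier lipid, 6 collagen and 6 junction genes were lower. Over the 12 arrays the block ended the call of 1 named gene, Cnr2, and in the knockout arrays alone those of 3. At a filter of 64, which tests fewer genes, 7 cytotoxic, 5 checkpoint and 3 Langerhans and dendritic cell genes were higher. Without 1 knockout ear the knockout response kept 4203 to 4625 higher and 5365 to 6007 lower probe sets. The difference of the responses gave, for higher and lower probe sets, 0 and 0 without a filter, at a filter of 64 and with the mouse as a block, 2 and 0 with the washing run as a block, 0 and 4 with a trend and robust variance model, and 1 and 0 with 16 added to each intensity. Without 1 ear it gave 0 to 1 higher and 0 to 3 lower. Of 211 named genes past the threshold, 202 kept their call under all settings run, and no named gene changed direction under any of them. Because genes whose call held were preferred for naming, these counts do not measure how steady the other genes are. Group sizes of 3 and intensities under 16 limit what can be resolved, most of all for genes that are dim in control ears.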
